A study of Arabidopsis thaliana with 4 samples.

Results

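The genes described here are 9 Arabidopsis genes that build very-long-chain fatty acids and turn them into the wax of the shoot surface. They are KCS1, KCS5, KCS6, KCR1, CER10, CER2, CER1, CER3 and CER4, and they are 9 of the 23695 loci with any read in the series. Their locus names chose them, and the group was put together because KCS1 was higher with auxin in the wild type and lower with auxin in the mutant. The auxin responses of the group are therefore a description of these libraries and carry no test. The RNA came from hypocotyls, the embryonic stems, of seedlings grown for 4 days in the dark on half-strength medium in all groups. The groups were arf7 with NAA, arf7 mock, Col-0 with NAA and Col-0 mock, with 1 library each. NAA, naphthalene acetic acid, is a synthetic auxin and was given at 500 nM, and mock seedlings received none. The arf7 seedlings carry a T-DNA insertion in ARF7, which encodes an auxin-responsive transcription factor, and Col-0 is the wild type. The labels name no further allele and do not say how many plants went into a library.

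Very-long-chain fatty acids are made at the endoplasmic reticulum by a complex of 4 enzyme activities that adds carbon pairs to an acyl-CoA in repeated rounds. A ketoacyl-CoA synthase (KCS) condenses the chain with malonyl-CoA and sets the chain length, and a reductase, a dehydratase and a second reductase finish each round. In the epidermis of stems and leaves the long chains then become alkanes by a pathway through CER1 and CER3, or primary alcohols and esters by a pathway through CER4. These products, with the polyester cutin, form the cuticle that limits water loss.

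The loci compared held 7187800 counts in arf7 with NAA, 6983607 in arf7 mock, 7155903 in Col-0 with NAA and 7394305 in Col-0 mock. ARF7 itself had 1 count in arf7 with NAA, 3 in arf7 mock, 8 in Col-0 with NAA and 8 in Col-0 mock, lower in the mutant but close to the limit of detection. The deposited counts are of unique reads, so these few do not bound the level of the gene. The Col-0 NAA library stood apart: across the loci compared its counts correlated with those of the other libraries at a Spearman rho of 0.847 to 0.881, against 0.968 to 0.981 among those 3. Every value for Col-0 with NAA below rests on that library, and the comparisons without it are NAA against mock in arf7 and arf7 against Col-0 in mock. With 1 library a group, no difference has a replicate check. A size rule stands in for a test. A locus is called higher or lower where its scaled counts differ by a fold of at least 2 and the 95% counting interval of the fold excludes 1. Intervals in parentheses after a fold are these intervals, and they leave out any spread between plants. Of the 9 genes, 8 reached the mean of 1 CPM, a count scaled to library size, that the comparisons asked for over the 4 libraries. CER1 did not, and CER4 passed through the Col-0 NAA library in which it was high.

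With NAA, all 8 genes compared were higher in Col-0, none was called in arf7, and all 8 were lower in arf7 than in Col-0. In Col-0 the folds of NAA over mock ran from 2.62 for CER10 to 8.0 for KCS5, with CER4 further out on few reads, and the median log2 fold was 1.91 against -0.01 over all loci. In arf7 the median log2 fold with NAA was -0.09, against 0.00 over all loci. Among all 17317 loci compared, 15.2% were called higher with NAA in Col-0 and 8.24% were called in either direction in arf7. Since the genes were chosen on the NAA response, nothing is read from their counts against these shares.

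**Figure D1:**
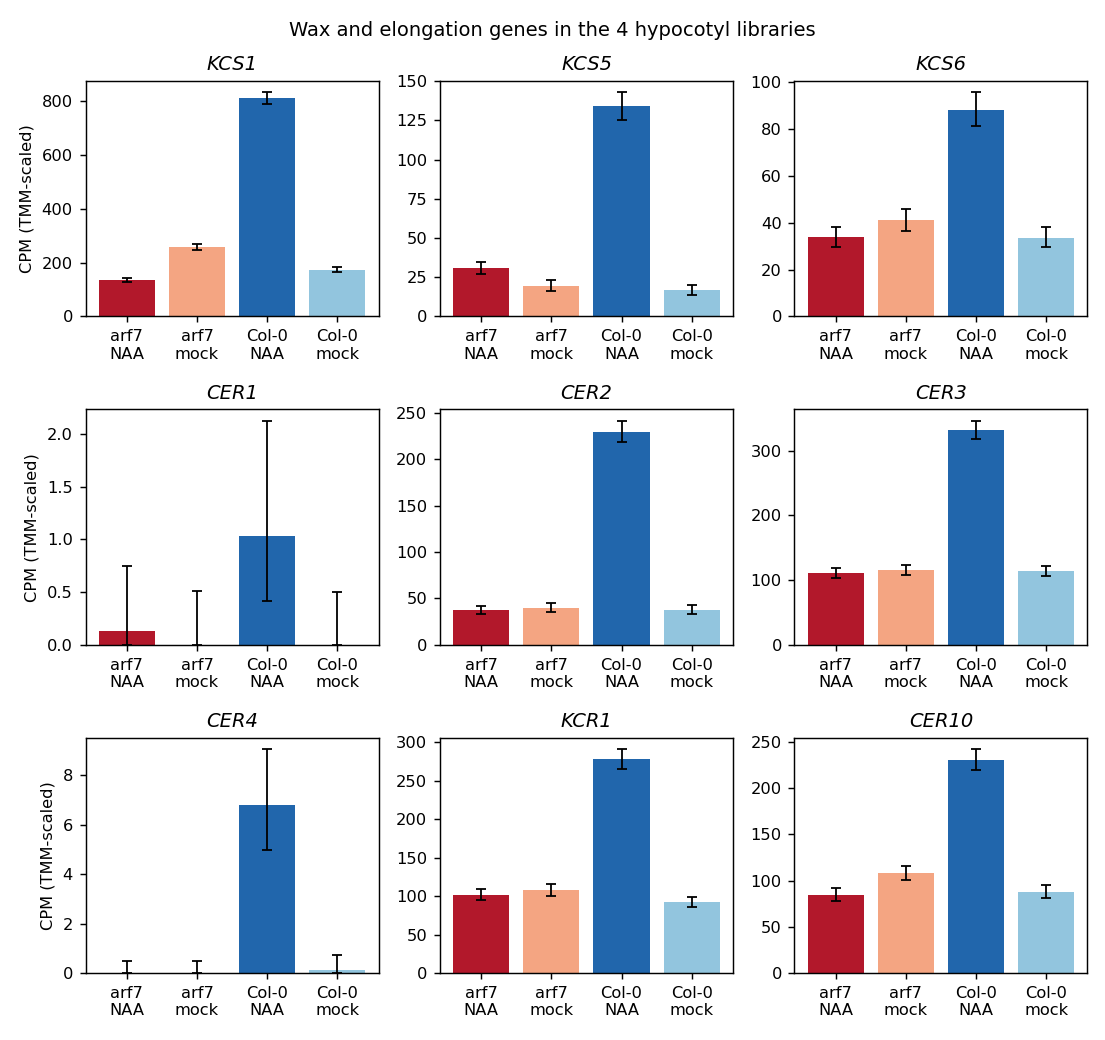
Scaled counts in CPM (vertical axis, a separate scale for each gene) of the 9 genes in arf7 with NAA, arf7 mock, Col-0 with NAA and Col-0 mock, 1 library each; lines are 95% Poisson counting intervals. The Col-0 NAA bar is the tallest in every panel, and in arf7 the bar with NAA falls furthest below the mock bar for KCS1, 134 against 257 CPM.

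KCS1 (AT1G01120, chromosome 1, 57269 to 59167, reverse strand, TAIR10) encodes a condensing enzyme with a broad role in wax and other surface lipids. It had 997 counts in arf7 with NAA, 1865 in arf7 mock, 5497 in Col-0 with NAA and 1266 in Col-0 mock. The highest library was thus Col-0 with NAA, and the lowest was arf7 with NAA. The fold with NAA was 4.69 in Col-0 (4.42 to 4.99), while in arf7 the gene was 1.92-fold lower with NAA (1.77 to 2.07), just short of the fold the size rule asks for. Without NAA it was 1.49-fold higher in arf7 than in Col-0 (1.39 to 1.60), and with NAA 6.02-fold lower (5.62 to 6.45). The arf7 response minus the Col-0 response was -3.17 on the log2 scale (-3.31 to -3.03). Of the 2626 loci higher with NAA in Col-0, 275 had an arf7 interval below 1, which is 10.5% of them and 1.59% of all loci compared. KCS1 is among these, as are CER10 and KCS6 (its 2 models summed) with smaller differences in arf7.

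KCS5 (AT1G25450, chromosome 1, 8938479 to 8940387, reverse strand), also called CER60, is a close relative of KCS6 and a condensing enzyme of wax precursors. It had 228 counts in arf7 with NAA, 141 in arf7 mock, 910 in Col-0 with NAA and 123 in Col-0 mock. Among the 8 genes compared it was the only one with an arf7 interval above 1, at 1.58-fold (1.27 to 1.96), against 8.0-fold in Col-0 (6.62 to 9.74). With NAA it was 4.36-fold lower in arf7 than in Col-0 (3.76 to 5.06).

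KCS6 (AT1G68530, chromosome 1, 25712588 to 25714807, reverse strand), also called CER6 or CUT1, is the main condensing enzyme of stem wax. Its counts were 250 in arf7 with NAA, 297 in arf7 mock, 599 in Col-0 with NAA and 246 in Col-0 mock. Col-0 with NAA was again the highest, 2.63-fold above mock (2.27 to 3.07), and in arf7 the NAA library was 1.22-fold lower than mock (1.02 to 1.44). This gene was measured on a small part of its length. Its main model had reads over 4.89% to 4.94% of its bases and a second model, longer at 2220 bases, over 11.3% to 15.95%. The deposited counts are of unique reads, and loci with several listed models were in general covered on a small part of their length. The second model had 15 counts in arf7 with NAA, 27 in arf7 mock, 33 in Col-0 with NAA and 7 in Col-0 mock. On the main model alone, the log2 fold with NAA in arf7 was -0.23, against -0.28 for the sum. In mock, the log2 fold of arf7 over Col-0 was 0.19 on that model, against 0.29 for the sum. The intervals given for this gene are of the sum.

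KCR1 (AT1G67730, chromosome 1, 25391460 to 25393610, forward strand) encodes the ketoacyl-CoA reductase of the elongase, the step after condensation. Counts were 754 in arf7 with NAA, 785 in arf7 mock, 1887 in Col-0 with NAA and 679 in Col-0 mock. The 3 libraries other than Col-0 with NAA lay close together, and NAA in Col-0 gave a 3.0-fold higher level (2.75 to 3.29). In arf7 the gene was 1.07-fold lower with NAA, with an interval that includes 1 (0.963 to 1.18).

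CER10 (AT3G55360, chromosome 3, 20520930 to 20523014, reverse strand) encodes the enoyl-CoA reductase that closes each round of elongation. It had 630 counts in arf7 with NAA, 786 in arf7 mock, 1563 in Col-0 with NAA and 646 in Col-0 mock. NAA was followed by a 2.62-fold higher level in Col-0 (2.38 to 2.87) and a 1.28-fold lower level in arf7 (1.15 to 1.42). KCR1 and CER10, which serve every KCS enzyme, had similar levels per length. The authors' RPKM, a read count scaled to model length and library size, was 64.6 for KCR1 and 64.7 for CER10 in Col-0 mock, and their counting intervals overlapped in every library but Col-0 with NAA.

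CER2 (AT4G24510, chromosome 4, 12660749 to 12662656, forward strand) encodes a protein of an acyltransferase family that lets the elongase reach the longest wax chains. Its counts were 277 in arf7 with NAA, 288 in arf7 mock, 1559 in Col-0 with NAA and 279 in Col-0 mock. The 3 lower libraries were nearly equal, and the Col-0 response was 6.04-fold (5.32 to 6.89). In arf7 the gene was 1.06-fold lower with NAA (0.899 to 1.26). CER26, a relative of CER2, had 101 counts in arf7 with NAA, 87 in arf7 mock, 27 in Col-0 with NAA and 47 in Col-0 mock. Its NAA response was not called in either genotype, at 1.61-fold lower in Col-0 (0.982 to 2.69) and 1.13-fold higher in arf7 (0.843 to 1.53). It was higher in arf7 than in Col-0 by 3.43-fold with NAA (2.22 to 5.45) and by 1.88-fold in mock (1.30 to 2.74). Of the 5 other wax genes compared, 1 was higher and 1 lower in arf7 with NAA, where 1870 and 2446 of 17317 loci were.

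CER3 (AT5G57800, chromosome 5, 23420209 to 23424052, forward strand) acts with CER1 in making alkanes, the main wax class of stems. It had 821 counts in arf7 with NAA, 841 in arf7 mock, 2257 in Col-0 with NAA and 841 in Col-0 mock. Only Col-0 with NAA stood out, 2.90-fold above mock (2.68 to 3.14), and in arf7 NAA and mock differed by a 1.05-fold lower level with NAA (0.951 to 1.16).

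CER1 (AT1G02205, chromosome 1, 418748 to 422437 over its 2 listed models, forward strand), the partner of CER3, was barely counted. It had 1 count in arf7 with NAA, 0 in arf7 mock, 7 in Col-0 with NAA and 0 in Col-0 mock, from reads over at most 4.20% of a model. A count of 0, taken as up to 3 counts, allows up to 0.414 CPM in arf7 mock and 0.409 CPM in Col-0 mock of the reads counted here, and the 95% Poisson intervals reach 0.509 and 0.502 CPM. These limits do not bound the level of the gene. The locus is annotated with several transcripts and was covered on so little of its length that its level relative to CER3 cannot be read from these counts.

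CER4 (AT4G33790, chromosome 4, 16204157 to 16207947, reverse strand) encodes the acyl-CoA reductase that makes the primary alcohols of wax. It had 0 counts in arf7 with NAA, 0 in arf7 mock, 46 in Col-0 with NAA and 1 in Col-0 mock. Reads were thus almost confined to the Col-0 NAA library, where they covered 69.1% of the model. The ratio in Col-0 was 49.7 with a wide interval (8.49 to 2007), and with NAA the gene was at least 16.7-fold lower in arf7 than in Col-0, taking 0 as 3 counts and the 46 counts as exact. The 95% counting interval of that fold begins at 13.1. WSD1, which joins wax alcohols to fatty acids as esters, was similar and is named after its values were seen. It had 131 counts in Col-0 with NAA, through which alone it passed the minimum, and 0 in each of the other libraries. With 0 taken as 3 counts it was at least 47.2-fold higher with NAA in Col-0, and the 95% counting interval begins at 37.9.

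**Figure D2:**
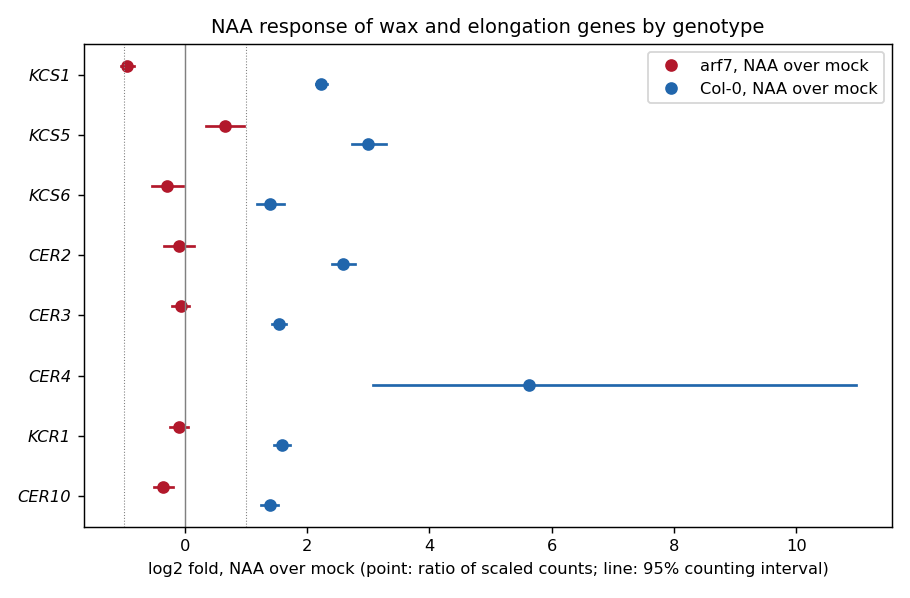
Log2 fold of NAA over mock (horizontal axis) for the 8 genes compared, in arf7 (red) and Col-0 (blue), as points with 95% counting intervals; dotted lines mark 2-fold. No arf7 value of CER4 is drawn, since both arf7 libraries had 0 counts. All Col-0 points lie above 2-fold, and the arf7 points lie between a log2 of -0.94 and 0.66.

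Without added auxin, the log2 folds of arf7 over Col-0 had a median of 0.22 in the 8 genes compared, against 0.01 over all loci, and 7 were above 0. None of the 8 was called in either direction in mock, where 4.64% of all loci were, and nothing is read from that count. The folds of arf7 over Col-0 ran from 1.01 for CER3 (0.920 to 1.12) to 1.49 for KCS1, leaving out CER4, which had 0 and 1 counts. Intervals above 1 were found for KCS1, KCS6, KCR1 and CER10. The folds were 1.22 for KCS6 with its 2 models summed (1.03 to 1.46), 1.17 for KCR1 (1.06 to 1.30) and 1.23 for CER10 (1.11 to 1.37). With NAA all 8 were lower in arf7, where 14.1% of all loci were. The folds below Col-0 ran from 2.62 for KCS6 (2.25 to 3.04) to 6.14 for CER2 (5.40 to 7.01), besides CER4. The difference between the responses, arf7 minus Col-0, was called lower for 7 of the 8, against 13.2% of all loci, with a shift of at least 1 on the log2 scale and an interval excluding 0 as the rule. It ran from -1.60 for CER3 (-1.78 to -1.43) to -3.17 for KCS1, and for CER4 the interval of -11.2 to 1.02 included 0. Since the genes were chosen on the NAA response, nothing is read from the counts with NAA or of the difference against the shares of all loci. CER4 passed the minimum through Col-0 with NAA, the library it is compared with there. These comparisons share libraries, so their values are not independent of each other.

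**Figure D3:**
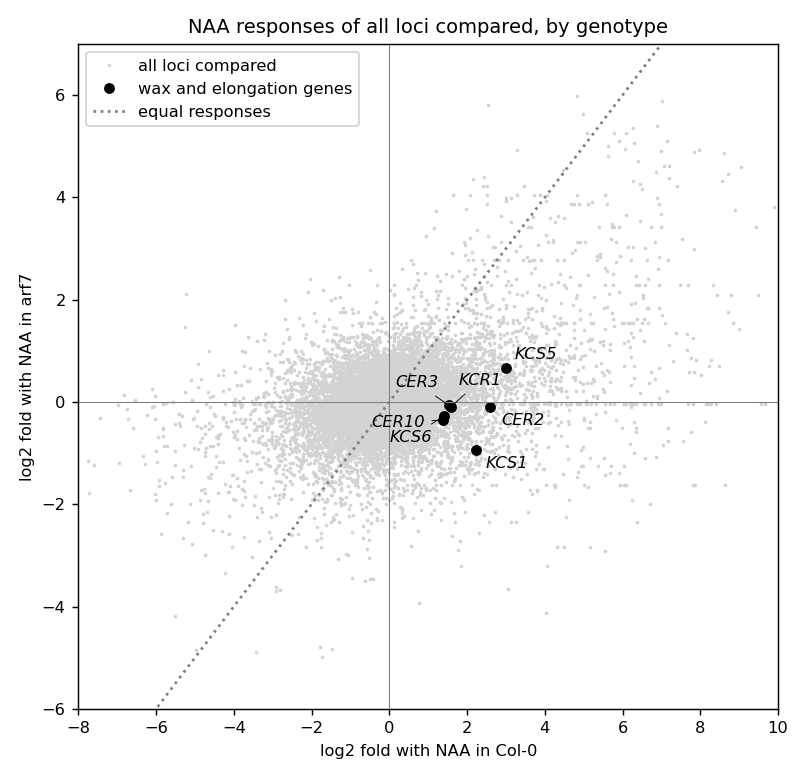
Log2 fold of NAA over mock in arf7 (vertical axis) against Col-0 (horizontal axis) for all loci compared within the axis limits (grey) and for 7 of the wax and elongation genes (black; CER4 left out because of its 0 counts in arf7). The black points lie right of 1 on the horizontal axis and below the dotted line of equal responses, with KCS1 the lowest at 2.23 and -0.94.

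The order of the genes by RPKM, the per-length level, also differed between libraries. In Col-0 with NAA, KCS1 had 403.5, KCR1 185.5, CER10 162, CER2 139, CER3 126 and KCS5 71.1. In Col-0 mock, KCS1 had 90.0, CER10 64.7, KCR1 64.6, CER3 45.4, CER2 24.1 and KCS5 9.31. KCS1 led in both Col-0 libraries and in arf7 mock with 140 RPKM, followed there by CER10 with 83.4 and KCR1 with 79.1. In arf7 with NAA, KCR1 had 73.8 and KCS1 72.9, which do not differ beyond their counting intervals (68.7 to 79.3 for KCR1 and 68.4 to 77.6 for KCS1). CER2 stood above CER3 in Col-0 with NAA and below it in the other 3 libraries.

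Within the KCS family, which has 21 loci in the list used here, NAA in Col-0 went with higher levels of many but not all members. Of the 18 other KCS genes, 12 could be compared, of which 6 were higher and 1 lower with NAA in Col-0 (median log2 fold 1.19), where 15.2% of all loci were higher and 13.1% lower. KCS16 had 58 counts in arf7 with NAA, 24 in arf7 mock, 777 in Col-0 with NAA and 23 in Col-0 mock, 36.5-fold higher in Col-0 (24.2 to 58.0). KCS2, known for root suberin, had 106 counts in arf7 with NAA, 137 in arf7 mock, 1667 in Col-0 with NAA and 106 in Col-0 mock, 17.0-fold higher in Col-0 (14.0 to 20.9). KCS19 was 12.9-fold higher (10.9 to 15.3). KCS16 was below 5 CPM in both mock libraries and at 7.82 CPM in arf7 with NAA. It reached the mean of 5 CPM asked of named genes mainly through Col-0 with NAA. KCS16, KCS2 and KCS19 exceed KCS5, KCS6 and KCS1 in fold. With NAA they were lower in arf7 than in Col-0, by 14.6-fold for KCS16 (11.2 to 19.4), 17.2-fold for KCS2 (14.1 to 21.1) and 9.97-fold for KCS19 (8.61 to 11.6). Of the 12, 7 were lower there and 1 higher (KCS13, 3.01-fold, 1.63 to 5.93), where 2446 and 1870 of 17317 loci were. The 3 were named for the size of their folds, and both comparisons use the Col-0 NAA library, so these values are not independent.

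KCS12 was the family member called lower with NAA. It was 3.18-fold lower with NAA in Col-0 (2.80 to 3.62), 2.08-fold lower with NAA in arf7 (1.74 to 2.50) and 2.87-fold lower in arf7 than in Col-0 in mock (2.55 to 3.24). In arf7 with NAA, KCS16 was the only other family member called, at 2.36-fold higher (1.44 to 3.97), so 1 of the 12 was higher and 1 lower, with a median log2 fold of 0.02, where 3.92% of all loci were higher and 4.33% lower. In mock, KCS8 was 2.05-fold lower in arf7 (1.74 to 2.42) and KCS13, with 44 counts in arf7 and 19 in Col-0, was called higher, where 2.33% of all loci were higher and 2.3% lower. Of the 19 family members with 1 listed model, KCS20 and KCS10 had the highest RPKM in every library. KCS1 had rank 4 in arf7 with NAA, where KCS3 was above it, rank 3 in arf7 mock, rank 3 in Col-0 with NAA and rank 4 in Col-0 mock. KCS18, also known as FAE1 of seed oil, had no listed read in any library.

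**Figure D4:**
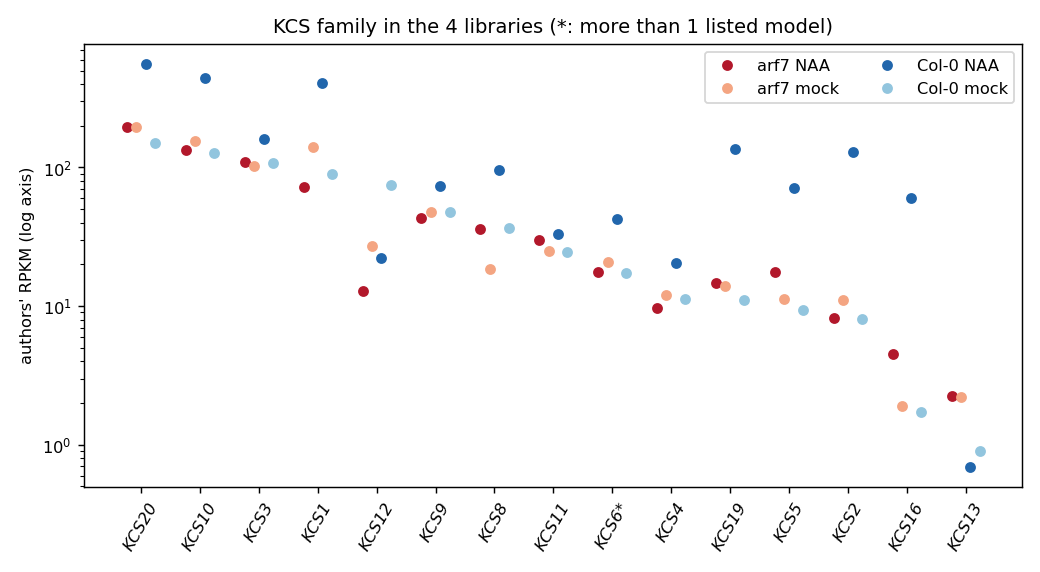
The authors' RPKM (log axis) of the 15 KCS genes compared, ordered by level in Col-0 mock, in arf7 with NAA, arf7 mock, Col-0 with NAA and Col-0 mock. KCS6 has 2 listed models and its better-counted model is drawn. The Col-0 NAA point is the highest of the 4 for all but KCS12 and KCS13.

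Reads that could belong to relatives were looked for in the annotated transcripts. The longest stretch that a member shares exactly with a transcript of another locus was 33 bases for KCS1 (with KCS13), 27 for KCS5 (with KCS10), 23 for KCS6 (with KCS5) and 34 for CER1 (with AT1G02190, next to it). For the other 5 genes it was 20 to 28 bases. The read length is not given in the sources used here, so reads lost to shared stretches could not be counted.

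The other genes of elongation and wax were mostly measured poorly or differed little. Of 5 further elongation genes 2 were compared, and ACC1, the cytosolic acetyl-CoA carboxylase that supplies malonyl-CoA to the elongase, was 2.65-fold higher with NAA in Col-0 (1.70 to 4.23). In arf7 its interval included 1, at 1.25-fold (0.790 to 1.99). KCR2, the relative of KCR1, had 2 counts in arf7 with NAA, 1 in arf7 mock, 21 in Col-0 with NAA and 2 in Col-0 mock and missed the minimum. PAS2, the dehydratase of the elongase, and MAH1, which oxidises wax alkanes, had no listed read. The deposited counts are of unique reads, so this does not bound the level of either gene. Of 8 further wax genes 5 were compared, with WSD1 higher and LACS3, an acyl-CoA synthetase gene, lower with NAA in Col-0 (3.38-fold, 2.40 to 4.85). A single gene of 5 in each direction is near the 15.2% of all loci higher and 13.1% lower, and WSD1 passed through 1 library.

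Most genes for cutin and for lipid export were also higher with NAA in Col-0. Of 13 cutin genes 12 were compared, and 8 were higher and 0 lower with NAA in Col-0 (median log2 fold 1.71), against 15.2% of all loci higher. None was called in arf7 (median -0.28), where 8.24% of all loci were. CYP86A4, a fatty acid hydroxylase, had 23 counts in arf7 with NAA, 32 in arf7 mock, 466 in Col-0 with NAA and 14 in Col-0 mock, 36.0-fold higher in Col-0 (21.2 to 66.3). It was also 2.32-fold higher in arf7 than in Col-0 in mock (1.20 to 4.70), 1 of 12 cutin genes called there, where 2.33% of all loci were higher. BDG1, a hydrolase-family protein of the epidermis, was 17.6-fold higher with NAA in Col-0 (13.9 to 22.5), and HTH, named for the organ fusions of its mutant, 10.3-fold (5.91 to 19.3). With NAA, 8 of the 12 were lower in arf7 than in Col-0, against 14.1% of all loci, led by CYP86A4 at 22.1-fold (14.6 to 35.2), BDG1 at 11.5-fold (9.49 to 14.0) and HTH at 8.54-fold (5.14 to 15.1). These were the same 8 called higher with NAA in Col-0. Both sets of calls use the Col-0 NAA library, so they are not independent, and the list was chosen with earlier results of these data known. CYP86A4 and HTH were below 5 CPM in every library but Col-0 with NAA. They reached the mean of 5 CPM asked of named genes only through it.

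All 6 export genes were compared and 5 were higher with NAA in Col-0 (median 1.62), against 15.2% of all loci. None was called in arf7 (median -0.10), where 8.24% of all loci were. ABCG11, a transporter needed for wax and cutin secretion, had 1221 counts in arf7 with NAA, 1354 in arf7 mock, 3953 in Col-0 with NAA and 1122 in Col-0 mock, 3.81-fold higher in Col-0 (3.56 to 4.07). LTPG1, a lipid-transfer protein anchored at the cell surface, had 740 counts in arf7 with NAA, 816 in arf7 mock, 4743 in Col-0 with NAA and 548 in Col-0 mock, 9.36-fold higher (8.56 to 10.2). LTPG2 was 8.59-fold higher (5.17 to 15.2), from 2 listed models. With NAA, LTPG2 was 10.5-fold lower in arf7 than in Col-0 (6.06 to 19.8), LTPG1 7.0-fold (6.47 to 7.57) and ABCG11 3.53-fold (3.31 to 3.77). These folds share the Col-0 NAA library with those of NAA over mock in Col-0, so they are not independent. LTPG2 was below 5 CPM in every library but Col-0 with NAA, and reached the mean of 5 CPM asked of named genes only through it.

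**Figure D5:**
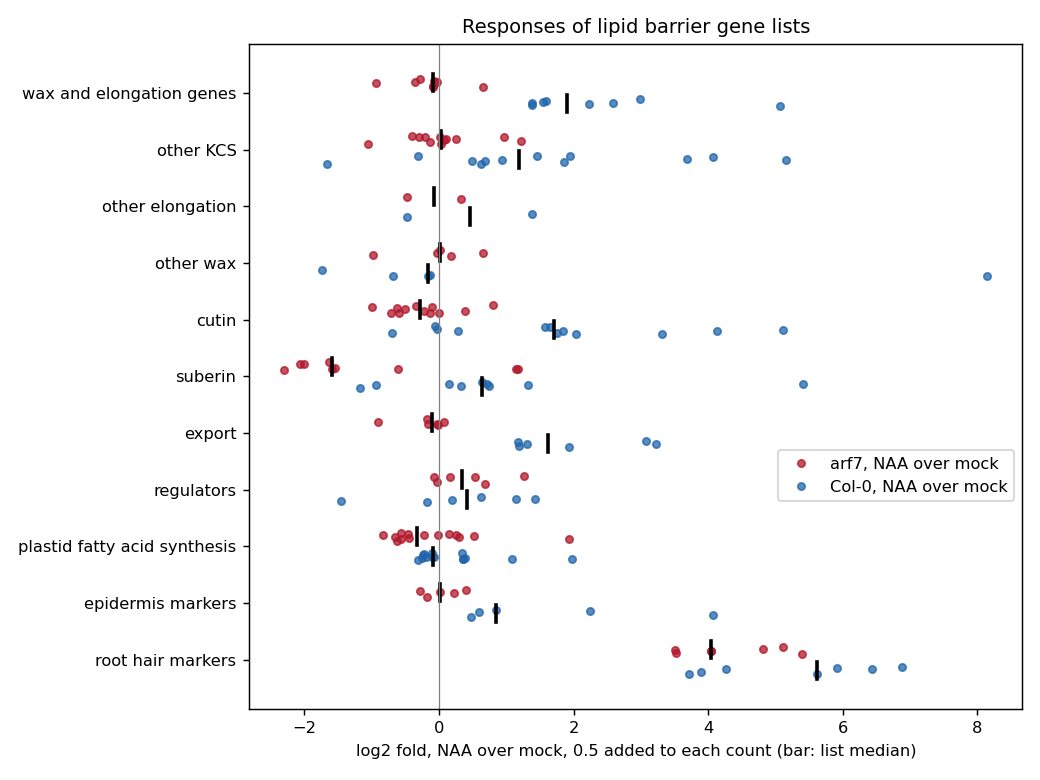
Log2 fold of NAA over mock (horizontal axis, 0.5 added to each count) for each compared gene of the lists, in arf7 (red) and Col-0 (blue); black bars are list medians. Genes with 0 counts in both libraries plot near 0, and the point furthest right, WSD1 in Col-0, depends on the added 0.5. The Col-0 medians of the 8 wax and elongation genes compared, of cutin and of export lie at 1.62 to 1.91 and their arf7 medians at -0.28 to -0.09, while the other wax genes have a Col-0 median of -0.17.

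Markers of tissues differed between the same libraries. The 5 epidermis markers had reads in every library and summed to 314 CPM in arf7 with NAA, 300.5 in arf7 mock, 1915 in Col-0 with NAA and 220.5 in Col-0 mock. PDF1, a protein of the outer cell layer, made up 1699 CPM of the sum in Col-0 with NAA and 100.4 in Col-0 mock, and was 16.9-fold higher with NAA in Col-0 (15.7 to 18.3). HDG12 was also called higher, so 2 of the 5 were higher with NAA in Col-0, where 15.2% of all loci were. ATML1 and PDF2, the regulators of epidermal identity, were not called in Col-0, with log2 folds of 0.47 and 0.85, nor was HDG11, at 0.59. ATML1 has 2 listed models, and such loci were in general covered on a small part of their length. The 8 root hair markers summed to 47.5 CPM in arf7 with NAA, 1.52 in arf7 mock, 142 in Col-0 with NAA and 2.45 in Col-0 mock, with 4 of them at 0 in arf7 mock and 2 at 0 in Col-0 mock. These markers reached the minimum of the comparisons mainly through the NAA libraries, so their calls are not counted here. The 5 seed markers summed to 2.16 CPM in arf7 with NAA, 3.59 in arf7 mock, 7.95 in Col-0 with NAA and 1.5 in Col-0 mock, with CRU3 and CRA1 at 0 in every library. The part of these markers in the wax gene differences was not tested. In RNA from a whole organ, more epidermal cells and more RNA per cell cannot be told apart.

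By their pattern over the 4 libraries, the 5 loci nearest to KCS1 were outside the gene lists used here. Likeness was the Euclidean distance between log2 CPM values centred per locus, over the 4453 other named loci that averaged 10 CPM or more. The nearest were CAD9, of the cinnamyl alcohol dehydrogenase family, at 0.28, the chloroplast gene psaB of photosystem I at 0.32, SCPL28, a serine carboxypeptidase-like gene, at 0.34, ACX1, an acyl-CoA oxidase, at 0.34, and GA3OX1, of gibberellin synthesis, at 0.35. CAD9 had 52 counts in arf7 with NAA, 101 in arf7 mock, 362 in Col-0 with NAA and 65 in Col-0 mock. Of the other 8 genes of the group CER2 came closest, at a distance of 0.71 and rank 57, and KCS5 was the furthest of those ranked, at 1.25 and rank 350. With 4 libraries the distance is a description of these values.

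The sequence before the annotated start was read for the 3 genes with the largest Col-0 folds among those with more than 50 counts in every library, to show whether they share letters known to be bound by auxin response factors. The 250 bases before the gene start in RefSeq on TAIR10.1 are given 5′ to 3′ on the gene's strand, with TGTC or its reverse complement GACA in capitals. KCS1 is at chr1:59216-59465 and KCS5 at chr1:8940614-8940863, both on the reverse strand, and CER2 is at chr4:12660437-12660686 on the forward strand.
KCS1: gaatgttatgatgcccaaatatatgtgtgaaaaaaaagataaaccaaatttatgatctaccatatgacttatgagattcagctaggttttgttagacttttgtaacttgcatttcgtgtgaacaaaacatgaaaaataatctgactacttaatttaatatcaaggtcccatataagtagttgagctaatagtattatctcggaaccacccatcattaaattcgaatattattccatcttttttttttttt
KCS5: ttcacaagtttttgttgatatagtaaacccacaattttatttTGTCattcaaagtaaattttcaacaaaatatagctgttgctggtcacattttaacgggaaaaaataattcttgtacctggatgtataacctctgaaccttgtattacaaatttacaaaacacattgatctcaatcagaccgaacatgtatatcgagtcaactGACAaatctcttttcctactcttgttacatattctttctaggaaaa
CER2: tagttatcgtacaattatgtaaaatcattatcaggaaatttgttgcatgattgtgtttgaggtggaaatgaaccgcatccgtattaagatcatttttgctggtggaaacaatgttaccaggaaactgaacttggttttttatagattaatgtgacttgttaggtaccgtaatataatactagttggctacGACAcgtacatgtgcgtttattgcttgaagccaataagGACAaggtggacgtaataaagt
TGTC, searched on both strands, is in 74.8% of the 27443 windows of this length before protein-coding genes and in 7 of the 9 here. KCS1 and CER10 have none, KCS5, CER1, CER2, CER3 and CER4 have 2, KCS6 has 3, and KCR1 has 7, a number reached in 0.171% of windows. The longer form TGTCTC, which contains TGTC, is in 10.9% of windows and in 0 of the 9. TGTCGG, which also contains it, is in 4.16% of windows and in 1 of the 9, CER1, at 76 to 71 bases before the start. The L1 box of epidermal genes, searched as TAAATGCA and TAAATGTA, is in 4.49% of windows and in 0 of the 9. These counts describe letters within this window only.

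In the authors' deposited tables of pairwise comparisons, which list models past a filter of their own, the 8 genes other than CER1 are listed for NAA against mock in Col-0 and for arf7 against Col-0 with NAA. The authors' deposited table for Col-0 gives log2 ratios of 1.29 for the main model of KCS6 to 5.57 for CER4, and 2.16 for KCS1. The authors' deposited table for arf7 against Col-0 with NAA gives -1.27 for KCS6 to -8.55 for CER4, in which an RPKM of 0 was replaced, and -2.47 for KCS1. None of the 9 is listed in the authors' deposited tables for NAA against mock in arf7 or for arf7 against Col-0 in mock.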

How the data were processed

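RNA from dark-grown Arabidopsis hypocotyls was sequenced on an Illumina instrument after random-primed cDNA synthesis, per the labels' protocols. Per the file headers, the authors deposited for each library the count of unique reads of each transcript model, its length, the percent of its bases covered and its RPKM; models without reads are not listed. Per the submitters' processing notes the build was TAIR10; no aligner, counter, strand setting or read length is given in the sources used here. The comparison tables the authors deposited hold a log2 ratio, a p-value and an FDR per model past a filter, and their test is not stated there; 16 columns of per-sample values in them were not used.

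Counts were summed per locus. The 3381 loci with several listed models had a median of 5.37% of a model covered, against 70.7% for the 20314 with 1, as counting only reads unique to 1 model would give. Libraries were scaled with TMM (edgeR 4.0.16, R 4.3.3), and the 17317 loci that averaged 1 CPM or more were compared, with 6983607 to 7394305 counts in each library. Folds have exact conditional binomial (Clopper-Pearson) 95% intervals, levels have exact Poisson intervals and the difference of responses has a Wald interval; all cover counting error only. Medians of log2 folds add 0.5 to each count, and bounds take a count of 0 as 3. No p-value is given, since each group is 1 library and the genes were chosen on these values. An additive model over all 4 libraries was not fitted.

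The 9 genes and all lists were chosen with earlier results of these data known. All 9 were named in each comparison; from each other list, up to 3 called genes with the largest log2 fold and a mean of at least 5 CPM were named. Alternatives were DESeq2 1.42.0 size factors, total counts, the best-counted model of a locus, no filter, a mean of at least 5 CPM, 1 added to counts and a fold of at least 1.5. Promoter windows were read from the RefSeq TAIR10.1 genome, in which 26610 of 26618 nuclear models of the files overlapped the gene of the same locus on the same chromosome and strand.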

Additional observations from a re-analysis of the deposited data

Results flagged for a closer look

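Among the 30 genes that the naming rule picked, 7 had NAA responses in opposite directions in the genotypes, with the arf7 counting interval below 1 and the Col-0 interval above 1. Over all loci 8.59% had intervals on opposite sides of 1 in the genotypes, 1488 of 17317, a share not given by direction. The 30 genes were picked partly for the size of their responses, and KCS1 for this very pattern, so nothing is read from the count against that share. The difference between the genotypes was not tested, since no group has a replicate. The arf7 response minus the Col-0 response was -3.17 on the log2 scale for KCS1, -1.68 for KCS6 with its 2 models summed and -1.74 for CER10. Among the other lipid genes it was -4.48 for KCS2, -2.11 for ABCG11, -3.40 for LTPG1 and -2.29 for GPAT5, an acyltransferase gene of suberin synthesis. Apart from KCS1 and GPAT5, the arf7 log2 response of these genes was small, from -0.17 for LTPG1 to -0.40 for KCS2. Some intervals ended close to 1. In arf7 they reached 0.976 for KCS6, 0.980 for LTPG1 and 0.981 for KCS2. In Col-0 that of GPAT5 began at 1.004, and GPAT5 was not called there. The main model of KCS6 alone had an arf7 log2 fold of -0.23, against -0.28 for the sum, and its interval is not given here. The naming rule left out other listed genes with such intervals, among them LACS2 of the cutin list, at -0.99 in arf7 and 1.65 in Col-0. The differences of all 7 genes use the Col-0 NAA library. For GPAT5 the highest library was arf7 mock, with 92 counts against 29 to 44 in the others.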

How the results depend on the processing

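The 8 wax genes called with NAA in Col-0, the 8 called lower in arf7 than in Col-0 with NAA and the 7 called in the difference of responses kept those numbers under 4 of the 7 alternatives run: both other scalings, the best-counted model of a locus and a fold of at least 1.5. Without a filter CER1 was compared too and 9 of 9 were higher with NAA in Col-0, with 8 and 7 in the other comparisons. With a mean of at least 5 CPM CER4 was left out and the numbers were 7, 7 and 7. With 1 added to each count the interval of CER4 also excluded 0 in the difference (-4.70), which makes 8. With a fold of at least 1.5, 1 of the 8 genes was higher (KCS5) and 1 lower (KCS1) with NAA in arf7, against 0 and 0. Over all loci, asking for a mean of at least 5 CPM gave 1596 loci higher with NAA in Col-0 (2626 in the reported values), 367 higher and 440 lower with NAA in arf7 (678 and 749), 192 higher and 204 lower in arf7 than in Col-0 in mock (404 and 399), and 1500 lower in arf7 than in Col-0 with NAA (2446); fewer loci were compared, 12633. A fold of at least 1.5 gave 3624 lower with NAA in Col-0 (2266), 1458 higher and 1610 lower with NAA in arf7, 892 higher and 930 lower in arf7 in mock, 3185 higher in arf7 than in Col-0 with NAA (1870) and 3216 higher in the difference of responses (1978). Scaling by total counts moved the median log2 fold of all loci for arf7 against Col-0 with NAA by 0.12, to 0.13, and changed no call of a wax gene. No paired analysis was possible because each group had 1 library and so no replicate numbers to pair; a model with genotype as a block was not fitted. Depth limits CER4, with at most 46 counts; CER1 and KCS6 were covered on a small part of their length.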

Other observations

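Most suberin genes compared, whose products make the lipid polyester of roots and wounded tissue, were lower with NAA in arf7. Of 12 genes 9 were compared, and with NAA in arf7 6 were lower and 2 higher (median log2 fold -1.59), where 4.33% of all loci were lower and 3.92% higher; no test of the list was made. CYP86B1, a fatty acid hydroxylase, was 4.06-fold lower (2.68 to 6.33), the transporter gene ABCG6 3.14-fold (2.33 to 4.29) and GPAT5 3.04-fold (2.00 to 4.72). In arf7 mock 5 of the 9 were higher than in Col-0 mock and 1 lower, against 2.33% and 2.3% of all loci, with GPAT5 at 92 counts in arf7 and 29 in Col-0 and ABCG6 at 181 counts in arf7 and 72 in Col-0. This comparison and that of NAA against mock in arf7 share the arf7 mock library, so their calls are not independent. FAR1, a reductase that makes suberin alcohols, followed another course, with 63 counts in arf7 with NAA, 27 in arf7 mock, 3323 in Col-0 with NAA and 84 in Col-0 mock. It was 57.6-fold lower in arf7 than in Col-0 with NAA (44.9 to 75.1) and 3.07-fold lower in mock (1.97 to 4.93). In Col-0 with NAA 2 of the 9 were higher, against 15.2% of all loci, and 1 lower (CYP86B1, 2.29-fold, 1.39 to 3.90), against 13.1%.

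Of 18 genes of plastid fatty acid synthesis, which makes the shorter chains that the elongase extends, 14 were compared. In Col-0 2 of them were higher with NAA, a share near the 15.2% of all loci, and 0 lower (median log2 fold -0.08). These were FATB, the thioesterase that releases saturated chains, at 2.12-fold (1.99 to 2.26) and WRI4, a regulator, with 34 counts in Col-0 with NAA and 9 in Col-0 mock. WRI4 is named after its values were seen, and it was also higher with NAA in arf7, with 21 counts against 5 (4.10-fold, 1.51 to 13.9). In arf7 1 of the 14 was higher and 0 lower (median log2 fold -0.33), where 3.92% of all loci were higher and 4.33% lower. BCCP1, a subunit of the plastid acetyl-CoA carboxylase, had an arf7 response minus Col-0 response of -1.02 on the log2 scale (-1.83 to -0.21). Its NAA response was not called in either genotype, and it has 2 listed models with 36 to 58 counts a library. In the difference of responses 1 of the 14 was called lower, against 13.2% of all loci. Of 11 regulators of wax and cutin 6 were compared. In Col-0 1 of the 6 was higher and 1 lower with NAA, near the 15.2% of all loci higher and 13.1% lower. MYB30, an activator of elongation genes, was 2.69-fold higher with NAA in Col-0 (2.38 to 3.05) and DEWAX, a repressor of wax genes, 2.74-fold lower (2.49 to 3.01). In arf7 neither was called, with 1.12-fold for MYB30 (0.966 to 1.30) and 1.06-fold lower for DEWAX (0.979 to 1.15). MYB96 and MYB94, activators of wax genes in dry conditions, were not called in either genotype. The arf7 response minus the Col-0 response was -1.26 for MYB30 (-1.54 to -0.99) and 1.37 for DEWAX (1.20 to 1.55) on the log2 scale.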
